A study of Caenorhabditis elegans with 3 samples.

Results

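The rpl genes of Caenorhabditis elegans are named for the proteins of the large ribosomal subunit. They were taken as all nuclear protein-coding genes whose symbol is rpl- followed by a number, with a decimal or letter suffix allowed, which gave 47 of 19973 genes in Ensembl release 115. The question was which of their promoters carried LIN-15B in L1 larvae, how strongly and where. Chromatin immunoprecipitation followed by sequencing had been done on whole L1 larvae, a pool of male and female worms, of strain OP184. The genotype given is unc-119(tm4063) III; wgIs184, in which the integrated transgene supplies an eGFP fusion of LIN-15B. All 3 biological replicates formed 1 group, no control sample was among them, and nothing was compared between conditions. Replicates 1 and 2 were from stock-centre worms with fragments of 150 to 350 bp, while replicate 3 was from laboratory stock and its labels add microtip sonication and name a GFP-FLAG tag at the C terminus. The labels do not settle whether the antibody recognised the tag or LIN-15B itself. Because whole larvae were used, binding in a few cells and weak binding in many cells cannot be told apart.

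The large subunit joins amino acids in its peptidyl transferase centre, passes the nascent chain out through an exit tunnel, and receives translation factors and tRNA at its stalks. Its proteins are needed in fixed proportion to the ribosomal RNA, and their genes are among the most highly transcribed in growing cells. LIN-15B is a nuclear protein with a THAP domain and belongs to the synMuv B class, which is best known for keeping germline genes silent in somatic cells of the worm. Many ribosomal protein genes of C. elegans make transcripts that receive a spliced leader, so an annotated start can lie downstream of the site where transcription begins.

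A promoter peak is a deposited peak with its summit between 1000 bp before and 200 bp after an annotated transcript start. Peaks were ranked by the strength that the authors' caller gave, with rank 1 the strongest of the 30000 in a list, in the list of each replicate and in a series-wide list made from all 3. The irreproducible discovery rate (IDR), fitted to all matched peaks of each pair of replicates, called a peak reproducible at 0.05 or less in all 3 pairs. By this rule 34 of the 47 rpl genes (72.3%) had a reproducible promoter peak, against 6.2% of all protein-coding genes. The count depended on the promoter window: with 250 bp before and 100 bp after the start it was 8, and with only the gene of the nearest start it was 20. Of these 34 summits, 33 (97.1%) lay between protein-coding genes, against 86.4% of the 792 other reproducible promoter peaks. The remaining rpl summit, that of rpl-24.2, lay in an intron of C03D6.1. The DNA of the summits is shown first, because its short shared words recur in the results that follow.

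The first set shows 4 of the 6 strongest rpl peaks, each as 40 bases on either side of the series-wide summit, on ce11 and 5′ to 3′ on the strand of the rpl gene. Capitals mark words found by search on both strands. The 6-base words found in the largest number of reproducible rpl windows, leaving out shifted copies, are ACCGTA (word 1), GAGACC (word 2), ACACTC (word 3) and ACACGC (word 4). Words of 8 bases chosen the same way are GCGAGACC and the longer form of word 1, ACCGTAGT, and those of 10 bases are GGCGAGACCC and, overlapping word 3, AAACGAGTGT. ATACTCAG is marked as well, and GAGTGT where 1 base separates it from ACCGTA, both picked by eye. A word read on the opposite strand appears as its reverse complement, such as GGTCTC for GAGACC, and shorter words lie inside some longer ones. All were chosen after the sequences had been seen. Of the 6 strongest, rpl-12 and rpl-35, at series-wide ranks 5 and 14, are not shown. Within 50 bp of the summit, rpl-12 held 0 of the 4 6-base words and rpl-35 held 1.
rpl-20, chrIV:4750027-4750107, minus strand: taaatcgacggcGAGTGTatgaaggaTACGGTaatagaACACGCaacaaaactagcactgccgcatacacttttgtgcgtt
rpl-3, chrIII:3867532-3867612, plus strand: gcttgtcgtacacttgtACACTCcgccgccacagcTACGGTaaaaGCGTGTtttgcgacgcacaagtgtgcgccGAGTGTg
rpl-43, chrII:14154508-14154588, plus strand: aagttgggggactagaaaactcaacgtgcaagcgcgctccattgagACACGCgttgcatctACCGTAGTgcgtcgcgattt
rpl-15, chrIV:654883-654963, minus strand: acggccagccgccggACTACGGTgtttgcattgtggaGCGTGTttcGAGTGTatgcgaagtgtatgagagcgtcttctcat

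The next set shows windows that hold GAGTGT and ACCGTA with a single base between them. The peaks of rpl-22, rpl-6, rpl-11.2 and rpl-21 were reproducible, while those of rpl-34 and rpl-29 were not, and their windows are centred on the series-wide summit of a peak that missed the call.
rpl-22, chrII:5055336-5055416, plus strand: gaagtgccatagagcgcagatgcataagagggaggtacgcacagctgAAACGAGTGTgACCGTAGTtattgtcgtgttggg
rpl-6, chrIII:7208074-7208154, plus strand: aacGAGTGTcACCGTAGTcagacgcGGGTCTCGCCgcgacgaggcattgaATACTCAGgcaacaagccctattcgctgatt
rpl-11.2, chrX:2242934-2243014, minus strand: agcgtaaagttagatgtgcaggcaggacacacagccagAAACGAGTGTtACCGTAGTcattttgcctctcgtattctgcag
rpl-21, chrIII:8130507-8130587, minus strand: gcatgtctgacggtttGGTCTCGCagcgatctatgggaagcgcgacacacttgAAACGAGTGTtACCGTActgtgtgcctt
rpl-34, chrIV:12268523-12268603, plus strand: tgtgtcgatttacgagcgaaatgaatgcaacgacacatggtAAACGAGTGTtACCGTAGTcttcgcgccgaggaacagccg
rpl-29, chrIV:13881912-13881992, plus strand: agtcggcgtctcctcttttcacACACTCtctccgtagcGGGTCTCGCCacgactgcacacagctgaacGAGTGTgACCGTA
Of the 6 reproducible rpl peaks with the joined words, 5 read them in the direction of the rpl gene and 1, that of rpl-1, read them against it. At the uncalled members they read with the gene in 3 of 3. The separating base was G at rpl-22 and rpl-29, T at rpl-11.2, rpl-21 and rpl-34, and C at rpl-6.

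The last set shows windows with the 8-base word ATACTCAG or its reverse complement. Those of rpl-7A, rpl-32 and rpl-9 held none of the 4 6-base words within 50 bp of the summit, while that of rpl-39 held 2 of them.
rpl-7A, chrIV:4390630-4390710, minus strand: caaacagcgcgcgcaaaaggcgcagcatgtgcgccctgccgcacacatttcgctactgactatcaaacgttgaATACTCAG
rpl-32, chrII:9057409-9057489, minus strand: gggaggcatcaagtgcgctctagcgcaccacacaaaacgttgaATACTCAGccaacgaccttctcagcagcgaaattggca
rpl-39, chrV:7776303-7776383, minus strand: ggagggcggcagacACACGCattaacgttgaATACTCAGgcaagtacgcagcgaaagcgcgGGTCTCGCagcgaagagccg
rpl-9, chrIII:7573027-7573107, minus strand: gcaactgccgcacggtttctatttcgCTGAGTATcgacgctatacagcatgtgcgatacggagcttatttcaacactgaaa

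The rpl promoters stood high in every list. Among the 1000 strongest series-wide peaks, 37 rpl genes (78.7%) had a promoter peak, against 6.89% of all protein-coding genes. The count was 32 (68.1%, against 5.86% of all genes) in replicate 1, 36 (76.6%, against 6.53%) in replicate 2 and 39 (83.0%, against 7.1%) in replicate 3. In all 3 replicates at once it was 32 (68.1%), against 4.38%. The members were thus far above the background in each list taken alone.

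At the very top, 11 rpl genes (23.4%) had a promoter peak among the 100 strongest series-wide peaks, against 0.743% of other genes. Any listed series-wide peak at all was found for 43 rpl genes (91.5%), against 45.9% of all genes, since the long lists also hold background. Over the members with a listed peak the median series-wide rank was 292 for the 43 rpl genes and 8916 for all 9160 genes. No rpl gene lacked a promoter peak in every list, but the share of all genes for which this holds was not counted. For rpl-25.1, rpl-27, rpl-38 and rpl-42 it rested on 1 replicate, at ranks from 13393 to 24816.

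**Figure D1:**
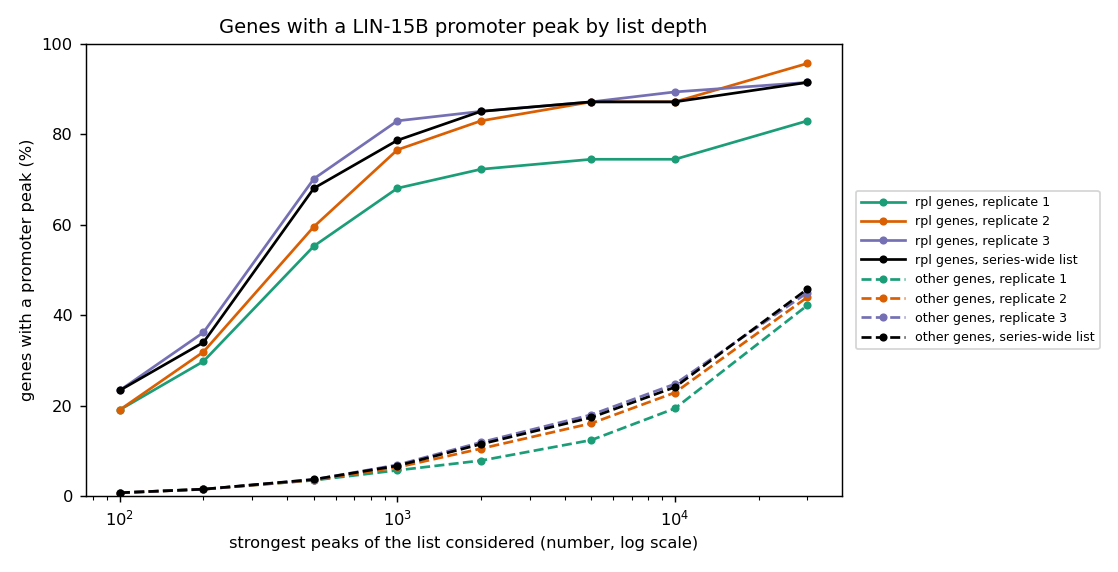
Share of genes with a promoter peak (y axis, percent) among the strongest peaks of each list (x axis, number of peaks, log scale), for the 47 rpl genes (solid lines) and all other protein-coding genes (dashed lines), with one colour per list. At 1000 peaks the rpl lines lie between 68.1% and 83.0%, and the other genes between 5.71% and 6.92%.

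Among proteins of the stalks, rpl-12 encodes the protein at the base of the stalk that binds translation factors, and rpl-1 that of the stalk over the tRNA exit site. The rpl-12 peak ranked 5 in replicate 1, 4 in replicate 2 and 4 in replicate 3 (mean 4.33 ± 0.577, SD, n = 3), and 5 in the series-wide list. Its summit lay 32 bp upstream of the rpl-12 start, the closest of all reproducible rpl summits, and 361 bp upstream of lin-54, a gene read the other way whose product binds DNA in the DREAM complex. At rpl-1 the ranks were 795, 693 and 415, with 454 series-wide. Both stalk genes with an rpl symbol were therefore called, at very different ranks.

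Near the peptidyl transferase centre, 1 of 3 members was called. That was rpl-3, whose product reaches towards the centre from the subunit surface, with ranks of 9, 7 and 16 in replicates 1, 2 and 3 (mean 10.7 ± 4.73, SD, n = 3) and a summit 282 bp upstream. The gene rpl-2, whose product helps to form the centre, ranked 1202, 2999 and 1650 and missed the call with a highest pairwise IDR of 0.105. For rpl-10, whose product contacts tRNA near the centre, the ranks were 14035, 982 and 652. The rpl-10 summits of the 3 replicates spanned 474 bp, with that of replicate 1 lying 75 bp downstream of the start.

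The exit tunnel list had 6 of 9 members called. The gene rpl-35, whose product sits at the tunnel rim, led it with ranks of 8, 9 and 26 (mean 14.3 ± 10.1, SD, n = 3) and summits that spanned 1 bp around 441 bp upstream. Next came rpl-31, another rim protein, at 112, 129 and 52 (mean 97.7 ± 40.5). The genes rpl-4 and rpl-17, whose products narrow the tunnel, ranked 397 and 476 in the series-wide list, and rpl-39, whose small product lines the tunnel, ranked 369. The uncalled members were rpl-19, rpl-26 and rpl-25.1.

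At the subunit interface all 5 members were called. The tiny protein of the bridge between the subunits is encoded by rpl-41.1 and rpl-41.2. Of these, rpl-41.2 ranked 109, 108 and 131, while rpl-41.1 ranked 2370, 1345 and 951 and was the called member closest to the threshold, with a highest pairwise IDR of 0.0342. The gene rpl-23 ranked 253 series-wide. The gene rpl-30 ranked 642 series-wide and was called at a highest pairwise IDR of 0.014, and rpl-24.1 ranked 314.

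In the central protuberance, which holds the 5S ribosomal RNA, 2 of 3 members were called. The gene rpl-5 ranked 143, 178 and 111, and rpl-11.2 ranked 271, 284 and 298. Its paralog rpl-11.1 had no promoter peak in replicate 1 and ranked 25010 in replicate 2 and 5376 in replicate 3. The 2 genes for the same ribosomal protein therefore fell on opposite sides of the call.

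A second paralog pair was split in the same way. The gene rpl-25.2, for a rim protein that docks the signal recognition particle, ranked 575, 626 and 340, whereas rpl-25.1 was listed in replicate 2 alone, at 13393. Both members of the rpl-24 pair were called, and these encode different proteins. One is rpl-24.1, the ribosomal protein, with ranks of 395, 283 and 311. The other is rpl-24.2, whose product is a biogenesis factor related to it in sequence, with ranks of 250, 159 and 343. Near-identical copies can share reads, and the sources used here do not say how such reads were treated.

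The other 24 members, spread over the body of the subunit, had 17 called. They included the strongest rpl peak, that of rpl-20, with rank 2 in all 3 replicates and in the series-wide list. Its strength on the caller's scale was 243.7, 223.5 and 354.5 in replicates 1, 2 and 3, where the highest value of the list was 284, 252 and 432. The zinc-binding protein gene rpl-43 ranked 21, 12 and 11 (mean 14.7 ± 5.51, SD, n = 3), with the most distant called summit, 746 bp upstream. Next in mean rank was rpl-15 at 23, 16 and 44 (mean 27.7 ± 14.6).

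Of the 10 members with the best mean rank, 3 remain. The gene rpl-28 ranked 40, 54 and 33 (mean 42.3 ± 10.7, SD, n = 3). The gene rpl-22 ranked 61, 42 and 47. The gene rpl-33 ranked 97, 116 and 17 (mean 76.7 ± 52.5), with replicate 3 well ahead of the others. From rpl-3 downwards, each of the 10 overlapped its neighbour in mean rank when the ranges over the replicates were set side by side. Within each replicate, rpl-43 still ranked ahead of rpl-15, and rpl-33 ahead of rpl-31. The other neighbours from rpl-3 downwards did not keep the same order in all replicates. Among genes farther apart, rpl-3, rpl-35 and rpl-43 ranked ahead of rpl-28, rpl-22 and rpl-31 in every replicate. Over the 38 members listed in all replicates, Spearman's rho between ranks was 0.927 for replicates 1 and 2, 0.894 for 1 and 3, and 0.9 for 2 and 3, which is a description across genes that share their libraries.

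**Figure D2:**
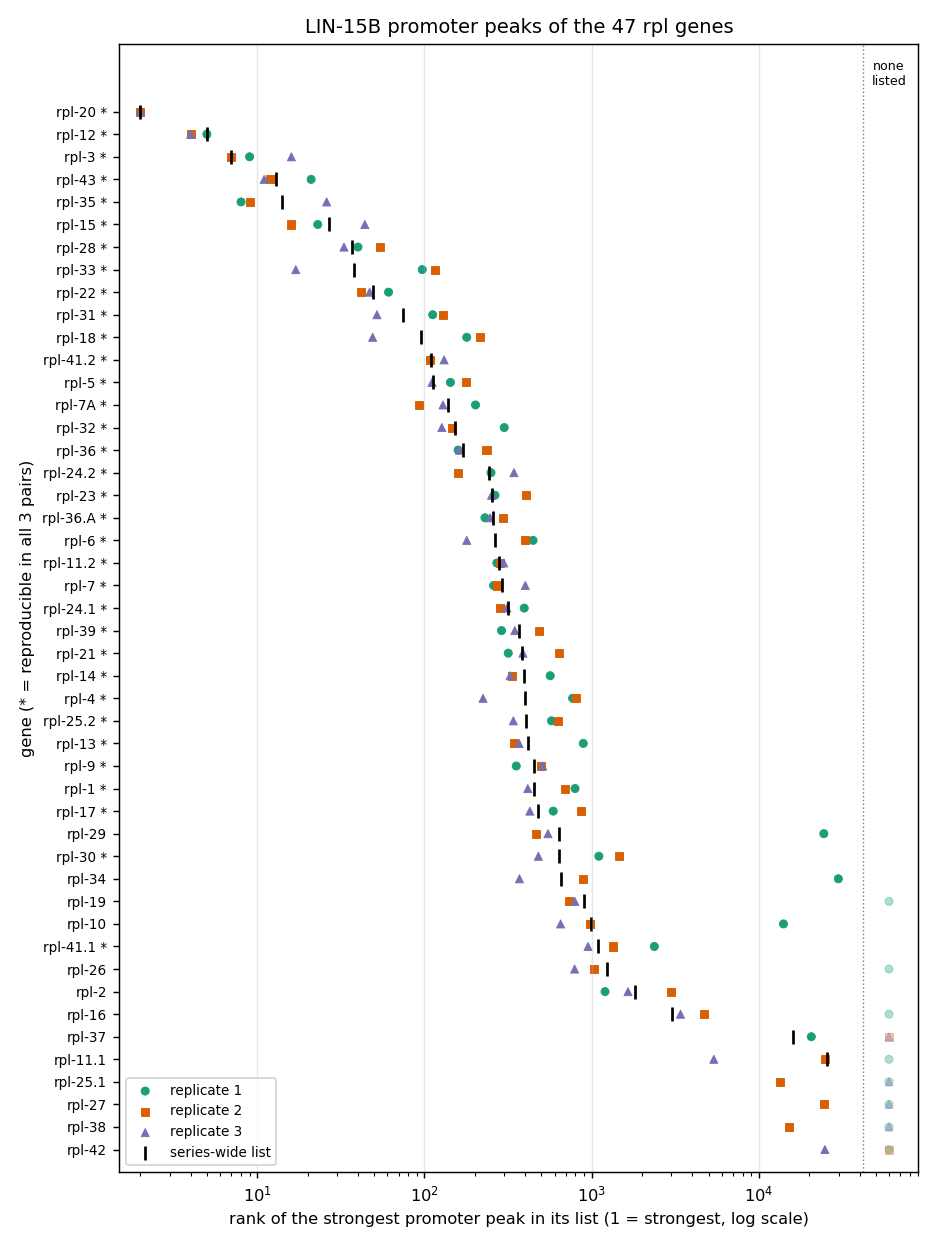
Rank of the strongest promoter peak (x axis, log scale, 1 = strongest of 30000) for each of the 47 rpl genes (y axis, ordered by series-wide rank) in replicates 1 to 3 (circles, squares, triangles) and the series-wide list (bars). An asterisk marks the 34 reproducible genes, and faint points right of the dotted line mark genes with no listed peak, such as rpl-19 and rpl-26 in replicate 1.

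Of the 13 uncalled members, 5 had strong peaks in replicates 2 and 3 but not in replicate 1. The gene rpl-29 ranked 24453 in replicate 1, 466 in replicate 2 and 548 in replicate 3. At rpl-34 the ranks were 29859, 885 and 370. No replicate 1 promoter peak was listed for rpl-19, at 729 and 793 in the others, or for rpl-26, at 1032 and 791. Together with rpl-10, these were 5 of the 39 rpl genes (12.8%) within rank 1500 in replicates 2 and 3 that had no promoter peak in the top 5000 of replicate 1, against 18.6% of all genes in that position. The rpl share was thus near the background, and the replicate 1 gap was not particular to these genes.

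Of the other uncalled genes, rpl-2 was listed in every list at the ranks given above, and the rest were weak or absent in most lists. The gene rpl-16 had no listed peak in replicate 1 and ranked 4679 and 3398 in replicates 2 and 3. The gene rpl-37 was listed in replicate 1 only among the replicates, at 20582. In replicate 2 alone, rpl-38 ranked 15054 and rpl-27 ranked 24628, and in replicate 3 alone rpl-42 ranked 24816. These 4 genes were thus each listed by a single replicate, beyond rank 10000. Just inside the threshold were rpl-41.1, rpl-30 and rpl-13, at highest pairwise IDR values of 0.0342, 0.014 and 0.00177, and just outside was rpl-2 at 0.105. The next uncalled members with a value, rpl-29 and rpl-34, were far from it at 0.822 each.

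Reproducible rpl summits lay farther upstream in the median than those of other genes, though fewer of them were very distant. The median distance was 294.5 bp upstream for the 34 rpl genes (quartiles 262.5 and 362 bp) and 217 bp for the 1205 other called genes (quartiles 128 and 369 bp). Summits 251 to 500 bp upstream were found at 24 rpl genes (70.6%) and 325 of the other genes (27.0%). Summits within 250 bp were found at 8 rpl genes (23.5%) and 57.4% of the others. Beyond 500 bp they were found at 5.88% of rpl genes and 15.6% of the others. None of the rpl summits lay downstream of the start, against 2.66% of the other genes. Small subunit genes were alike, with a median of 302 bp over 21 rps genes.

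The position was also stable between replicates. At rpl peaks the summits of the 3 replicates spanned a median of 21 bp (1 to 58 bp), and 33 of 34 were within 50 bp. At the other 792 reproducible promoter peaks the median span was 24 bp (0 to 429 bp), and 644 were within 50 bp. Since the summit was the centre of the peak for at least 99.6% of the peaks in each list, spans of this size describe where the caller centred a region rather than a measured maximum.

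**Figure D3:**
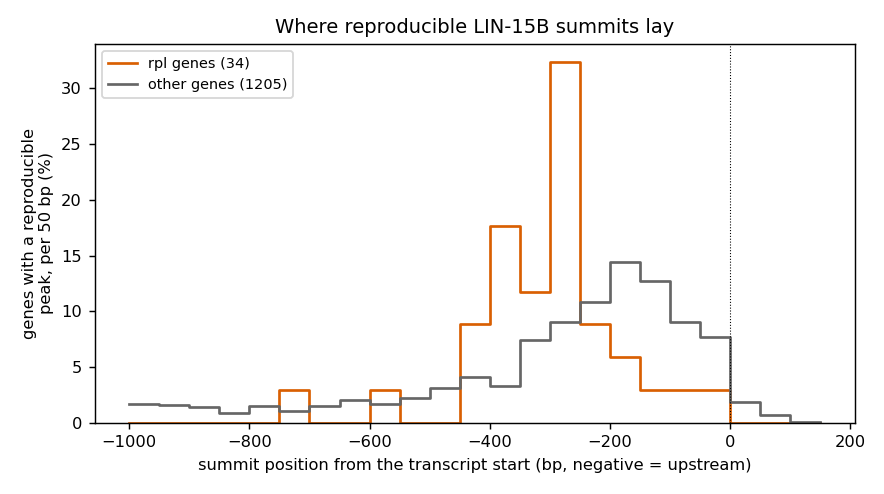
Position of the reproducible summit relative to the transcript start (x axis, bp, negative = upstream) as the percent of genes per 50 bp (y axis), for 34 rpl genes and 1205 other called genes. The rpl curve peaks between 250 and 300 bp upstream, and the curve of other genes peaks closer to the start.

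Many of these peaks lay between genes read in opposite directions. At 24 of the 34 called rpl genes (70.6%) the summit also fell in the promoter window of a second protein-coding gene, against 800 of 1205 other called genes (66.4%). The rpl share was thus near that of other called genes. The second gene was divergent at 23 and in tandem at 2, with rpl-36 counted under both. At 14 the start of the second gene was nearer to the summit than that of the rpl gene. Orientation and the nearer start were not counted for the other called genes, so neither is shown to be particular to rpl genes. The peak can thus not be given to one gene of such a pair from its position.

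The second genes of called rpl genes were 26 in all, and 21 of them were on none of the fixed lists, such as ify-1 next to rpl-22, sac-2 next to rpl-31 and nuo-1 next to rpl-36.A. The other 5 were 3 rps genes, 1 mrpl gene and 1 ribosome biogenesis gene. The peak of rpl-39 lay 264 bp upstream of that gene and 235 bp upstream of rps-30, that of rpl-24.1 was shared with rps-10, and that of rpl-36 with rps-14, where each rps gene encodes a protein of the small subunit. The rpl-28 peak was 345 bp from rpl-28 and 174 bp from mrpl-49, a gene for a mitochondrial ribosomal protein. The rpl-9 peak was shared with lpd-7, whose product acts in large subunit assembly, and the rpl-30 peak, of a member close to the threshold, lay 1 bp upstream of the start of pab-1. At the strongest rpl peak the rpl-20 start was 289 bp from the summit, and that of the divergent Y17G9B.5 was 173 bp from it.

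Neighbouring gene groups were counted by the same rule. Of the small subunit rps genes, 21 of 31 (67.7%) were called, led by rps-12 at ranks of 3, 3 and 3, rps-19 at 15, 11 and 10, rps-20 at 13, 28 and 8, and rps-27 at 25, 20 and 24. Of 4 large subunit genes without an rpl symbol, only ubq-2, which encodes ubiquitin fused to a ribosomal protein, was called, at 761, 530 and 496. The stalk genes rla-0, rla-1 and rla-2 were not, and of these rla-0 ranked 866 and 922 in replicates 2 and 3 with no listed promoter peak in replicate 1.

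Called genes made up 6 of 13 ribosome biogenesis genes, with fib-1, which encodes the nucleolar RNA methylase fibrillarin, at 74, 68 and 77. The others were eif-6, rbd-1, lpd-7, lpd-6 and pro-1. Of the mitochondrial large subunit mrpl genes, 11 of 41 (26.8%) were called, led by mrpl-49, mrpl-28, mrpl-37 and mrpl-15. The median series-wide rank over the listed members was 292 for rpl, 308 for rps, 1841 for the biogenesis genes and 1454 for mrpl.

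The 4 6-base words each had a higher share at rpl peaks than at other reproducible peaks. Within 50 bp of the summit, ACCGTA was present at 44.1% of the 34 rpl peaks, 27.8% of 18 rps peaks not shared with an rpl gene, and 10.2% of the 792 other reproducible promoter peaks, which include the rps peaks. In windows of the same 101 bp centred 150 bp upstream of every protein-coding gene it was present in 3.26%. GAGACC was present at 44.1% of rpl peaks, 33.3% of rps peaks, 12.6% of other peaks and 2.98% of all promoters, and ACACTC at 14 of 34 rpl peaks, 27.8% of rps peaks, 103 of 792 other peaks and 3.6% of all promoters. ACACGC was present at 32.4% of rpl peaks, 2 of 18 rps peaks, 13.3% of other peaks and 2.36% of all promoters. The all-promoter windows lie at a fixed distance, and at that same distance the called rpl promoters held ACCGTA in 0 of 34, GAGACC in 1, ACACTC in 2 and ACACGC in 0. Since the words were picked in the summit windows, lower shares elsewhere in the same promoters do not tie the words to the summit. Within 100 bp of the fixed point, called rpl promoters held ACCGTA in 11.8% and GAGACC in 11.8%, against 6.1% and 5.73% of all promoters. They held ACACTC in 20.6% and ACACGC in 5.88%, against 6.96% and 4.65% of all promoters. The words were picked for being common at rpl peaks, so the rpl shares are a description, while the rps windows had no part in the choice.

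At least 1 of these 4 words was present at 27 of the 34 rpl peaks, and 7 had none. The median offset towards the gene was 13 bp for ACCGTA (-27 to 31 bp) and 0.5 bp for GAGACC (-25 to 46 bp). It was 5 bp for ACACTC (-40 to 37 bp) and 0 bp for ACACGC (-38 to 40 bp). Only words within 50 bp of the summit were searched, so these offsets do not show that the words gather at the summit. Of 7 uncalled rpl genes with a series-wide promoter peak of rank 5000 or better, whose windows also had no part in the choice, 3 held ACCGTA, 4 held GAGACC, 3 held ACACTC and 0 held ACACGC. The first 3 words were thus also found at rpl peaks that missed the call.

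Longer words, also picked for being common at rpl peaks, were found at rps peaks too. GCGAGACC was present at 32.4% of rpl peaks, 22.2% of rps peaks and 6.44% of other peaks, and ACCGTAGT at 23.5%, 5.56% and 1.77% in the same order. The 10-base GGCGAGACCC was present at 20.6% of rpl peaks, 2 of 18 rps peaks and 2.02% of other peaks, and AAACGAGTGT at 14.7% of rpl peaks, 2 of 18 rps peaks and 1.14% of other peaks. ATACTCAG, shown in the last set of sequences, was present at 8 rpl peaks (23.5%), 4 rps peaks (22.2%), 10 of the 792 other peaks (1.26%) and 28 of all 19973 promoters (0.14%).

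The joined words GAGTGT and ACCGTA with 1 base between them were present at 6 rpl peaks (17.6%), those of rpl-22, rpl-6, rpl-11.2, rpl-24.1, rpl-21 and rpl-1. They were present at 10 of the 792 other peaks (1.26%), among them those of rps-23 and rps-29, and at 4 of 19973 promoters (0.02%). Of the 7 uncalled rpl windows, 3 held them, those of rpl-29, rpl-34 and rpl-19. All 3 genes were among those strong in replicates 2 and 3 but not in replicate 1. So were 5 of the 7 genes themselves, so this overlap does not link the words to replicate 1. A match is a description of the letters and not of a binding site.

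**Figure D4:**
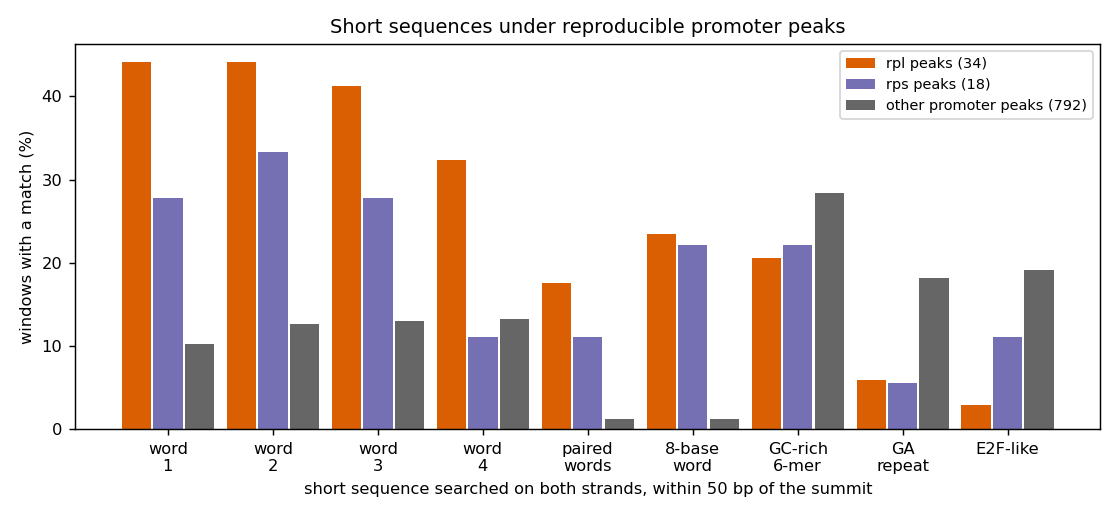
Percent of windows (y axis) with a match to each short sequence (x axis) within 50 bp of the summit on either strand, at 34 rpl peaks, 18 rps peaks and 792 other reproducible promoter peaks, which include the rps peaks. Word 1 is ACCGTA, word 2 is GAGACC, word 3 is ACACTC, word 4 is ACACGC, the paired words are GAGTGT and ACCGTA with 1 base between them, the 8-base word is ATACTCAG, the GC-rich 6-mer is GAGCGC and the GA repeat is GAGAGA. The first 6 are taller at rpl peaks than at other peaks, and the last 3 are shorter.

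Of 4 further motifs, searched because of earlier results on these data, each had a lower share at rpl peaks than at other peaks, with no test made on the shares. Within 100 bp of the summit, GAGCGC was present at 8 rpl peaks (23.5%), 32.6% of other peaks and 3.93% of all promoters. GAGAGA was present at 17.6%, 30.1% and 15.7% in the same order, and CACGTG at 2.94%, 4.67% and 3.98%, though within 50 bp CACGTG was at 2.94% of rpl and 2.27% of other peaks. An E2F-like set, which resembles sites of the cell cycle factor E2F, held TTCCCGC, the variant TTGGCGC, the variant TTCGCGC and the variant TTGCCGC. It was present at 2 rpl peaks (5.88%), 26.6% of other peaks and 6.89% of all promoters.

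Base composition was alike between rpl peaks and other reproducible promoter peaks, while the fixed-distance windows had a lower GC content. In 101-bp windows the GC content was 50.2% ± 5.75 at rpl peaks (SD, n = 34) and 47.8% ± 7.13 at other peaks (SD, n = 792), against 34.2% ± 8.33 in the fixed-distance windows of all promoters and 30.8% ± 7.56 in those of the called rpl genes. The ratio of observed to expected CG dinucleotides was 1.38 ± 0.311 at rpl peaks and 1.4 ± 0.443 at other peaks. Bases soft-masked in RefSeq as repeats or low complexity made up a mean of 23.6% of rpl windows and 24.6% of other windows.

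Called rpl genes were on every nuclear chromosome. They were 13 of 15 on chromosome I, against 9.8% of all its genes, 6 of 9 on II (6.03%), 7 of 9 on III (11.3%), 5 of 7 on IV (6.52%), 2 of 5 on V (3.5%) and 1 of 2 on X (2.23%). The called gene on X was rpl-11.2 and the uncalled one rpl-25.1. The uncalled genes on V were rpl-2, rpl-38 and rpl-11.1.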

How the data were processed

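ChIP-seq peak lists of 3 biological replicates and 1 series-wide list, on ce11, were analysed as deposited. Each had been made by the authors against a control file and holds background, per the records deposited with them. Which aligner and caller were used is not given in the sources used here. Peak strength is the authors' signal value, on a scale of its own in each list, and was used only to rank peaks. The deposited q value was treated as a score, since some values fall below 0. The lists hold no read counts, so the depth is unknown and no counting interval is given. Lists on ce10 were not used here, and unused columns of per-sample values numbered 0.

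Each series-wide peak was matched to the strongest peak overlapping it by 1 bp or more in each replicate. IDR, a mixture model of ranks, was fitted per pair of replicates in Python 3.11.15 with numpy 2.4.6, scipy 1.17.1 and pandas 2.3.3, after testing on simulated data. Tied peaks got the best rank of the tie. Genes came from Ensembl 115 and bases from RefSeq, both on WBcel235 (ce11). Values are given for the 10 best called members by mean rank, paralog pairs, uncalled members and the 3 genes on either side of the threshold. The genes, lists and fixed motifs were chosen with earlier results of these data known, and the shared words after the sequences were seen. Alternatives covered thresholds, promoter windows, matching and left-out replicates. Replicates are separate biological samples per the labels, and no test between groups was possible.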

Additional observations from a re-analysis of the deposited data

How the results depend on the processing

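The count of called rpl genes depended most on the promoter window, and rose when replicate 1 was left out. With promoters cut to 250 bp before and 100 bp after the start it was 8 rpl genes and 704 of all genes, and with only the nearest transcript start it was 20 and 816. The count in the series-wide top 1000 was 9 rpl genes with the short promoter and 22 with the nearest start. For these 2 counts the share of all genes was not counted. IDR in any pair gave 40 rpl genes (85.1%) and 2302 of all genes. Leaving out each replicate in turn left only 1 pair that had to pass, a looser rule. It gave 34 to 40 rpl genes and 1313 to 2186 of all genes. The high end came without replicate 1, which added rpl-10, rpl-19, rpl-2, rpl-26, rpl-29 and rpl-34, with 10.9% of all genes called. Settings that moved the count by 2 or less were an IDR of 0.01 (32, losing rpl-30 and rpl-41.1) or 0.1 (34), promoters of 500 bp (32, losing rpl-41.1 and rpl-43), summits within 100 bp (34), top 1000 of every replicate (32) and a q score of 2 or more (34). The median summit distance was 300 bp with replicate 2 summits, and the median rank was 345 in the replicate 2 list. GAGCGC was present at 1 rpl window centred 150 bp upstream of gene starts. Of 45 alternatives for the words of unbroken letters, added after the data were seen, 45 stayed within 1.5 times the reported count. Of 152 alternatives for the mean ranks of 38 genes, 116 moved by less than the SD over replicates. Most of the 152 left out 1 replicate, which cannot move the mean by as much as the SD unless the ranks are equal. That part of the count was thus fixed in advance. Ranking by the q score was free to move the mean, and took rpl-3 from 10.7 to 1 and rpl-36 from 185 to 1. Both genes had the highest q score of each replicate list, 2.96, 3.48 and 3.45, as had rpl-20. Tied peaks got the best rank, so the rank of 1 was a tie and did not order these genes. At rpl-13 the shift from 535 to 298 was less than the SD. The causes of the other changes were not tested. No paired analysis was possible because there is only 1 group. Depth is unknown, so a missing peak says only that none was listed.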
